A study of Mus musculus with 18 samples.

Results

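The cytosolic ribosomal protein genes are described here in mouse plasmacytoid dendritic cells (pDCs) exposed to imiquimod. The members were all protein-coding rows of the gene count table whose symbols start with Rpl or Rps, without kinases and binding proteins that carry those letters (Rps6k, Rps19bp) and without symbols that contain -ps. This gave 85 genes out of 54532 in the table, 52 with Rpl names (large subunit) and 33 with Rps names (small subunit). The rule used names and no measured value, but it was set with earlier results of these data known. Of the 85 genes, 83 had enough counts to be tested, among 14876 tested genes. Rpl10l had 0 counts and Rpl39l had 18 counts over all 18 libraries, and neither was tested.

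Total RNA depleted of rRNA was sequenced from pDCs grown from the bone marrow of wild-type C57BL/6 mice. Marrow cells were cultured for 7 days with 80 ng/mL Flt3 ligand, and B220-positive cells were then enriched with beads, to a purity that the labels give as routinely 80%. Imiquimod, an agonist of Toll-like receptor 7, was used at 2.5 µg/mL. There were 6 groups of 3 libraries. Untreated cells were taken at 0 h, and cells with the vehicle alone (labelled LAL) at 0, 6 and 16 h. Cells with imiquimod were taken at 6 and 16 h. All groups share the Flt3 ligand culture and the enrichment. Nothing in the labels ties the replicates to separate mice or cultures. The p-values therefore cover the variation among libraries alone, and that variation may be technical. In bulk RNA of this kind, fewer cells of a type and less RNA per cell cannot be told apart.

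A cytosolic ribosome is built from a large and a small subunit, each of rRNA and a set of proteins, and the genes of these proteins are usually transcribed at high levels in every growing cell. The mRNAs of these genes, and those of elongation factors, carry a run of pyrimidines at the very 5′ end (the terminal oligopyrimidine or TOP motif), through which the kinase mTORC1 and the binding protein Larp1 set their translation and stability. pDCs are specialised secretory cells that release type I interferon when Toll-like receptors sense nucleic acid, and Toll-like receptor 7 signalling is known to engage mTORC1 in them.

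The stretch around the transcription start is shown for the members on which the results below turn, because the TOP motif is the feature these genes are known to share. RefSeq start windows of 250 bases before and 50 bases after the start (GRCm38.p6) were matched by symbol for 65 of the 85 genes, which gave 77 windows. Each line gives the last 30 bases before the start and the first 20 bases from it, 5′ to 3′. Capitals mark a C followed by at least 4 bases that are C or T, beginning within 5 bases of the start, and a line without capitals has no such run.
Rps27l (chr9:66946056-66946105, plus strand): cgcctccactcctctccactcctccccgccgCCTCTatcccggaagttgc
Rps27 (chr3:90213629-90213678, minus strand): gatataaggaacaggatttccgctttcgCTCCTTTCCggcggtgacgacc
Rpl22l1 (chr3:28805478-28805527, plus strand): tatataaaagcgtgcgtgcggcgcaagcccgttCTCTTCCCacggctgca
Rpl22 (chr4:152325696-152325745, plus strand): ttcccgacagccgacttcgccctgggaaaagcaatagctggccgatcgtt
Rpl7l1 (chr17:46782637-46782686, minus strand): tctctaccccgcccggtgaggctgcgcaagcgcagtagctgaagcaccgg
Rps2 (chr17:24720033-24720082, plus strand): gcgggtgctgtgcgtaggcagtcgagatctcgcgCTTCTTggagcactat
Rpl11 (chr4:136053374-136053423, minus strand): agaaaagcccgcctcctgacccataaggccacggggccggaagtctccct
Rpl31 (chr1:39367821-39367870, plus strand): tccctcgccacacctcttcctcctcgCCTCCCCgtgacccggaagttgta
Rps6 (chr4:86857348-86857397, minus strand): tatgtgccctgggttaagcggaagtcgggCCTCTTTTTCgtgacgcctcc

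Such a run stood at the start in 32 of 77 member windows (41.6%) and in 18.3% of all 32851 windows of the same length. Over the whole window and on both strands, CCGGAAG, a core of the sites bound by ETS factors such as GABP, was found in 35.1% of member windows against 8.86% of all windows. AAGATGGCG, a match to sites of Yy1, was found in 7.79% against 1.40%, and its first 3 letters can overlap the end of CCGGAAG. The core of Sp1 sites, GGGCGG, was found in 59.7% against 35.7%, TATAAA in 9.09% against 13.6%, and the E-box CACGTG in 10.4% against 7.15%. These are matches of letters in a window and not binding sites. Rps27l, Rps27, Rpl22l1, Rps2, Rpl31 and Rps6 have the run among the windows printed above, and Rpl22, Rpl7l1 and Rpl11 do not. The match depends on the annotated start, and annotations differ. The RefSeq start of Rpl11 lies 35 bases from the GENCODE start of the gene, and that of Rps2 1947 bases. A window without the run therefore does not show that the mRNA lacks the TOP motif. The 29 tested members whose window has the run had a median log2 change under imiquimod of -0.03 at 6 h and 0.21 at 16 h. For the 34 without it the medians were -0.11 and 0.05. This split was not particular to the run. At 16 h the median was also higher with than without each other motif, as for CCGGAAG (0.21 against 0.06) and TATAAA (0.34 in 6 members against 0.10). At 6 h CCGGAAG alone went the other way (-0.12 with it, -0.07 without).

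The libraries held between 10609741 and 13447018 counts. The libraries of vehicle at 6 h were less alike than those of the other groups: the counts of replicates 1 and 2 differed by a chi-square of 10.5 per degree of freedom, against 1.32 to 4.25 for every other pair of replicates within a group. TMM scaling factors, which set the library scale from the bulk of genes, averaged 0.826 at imiquimod 6 h and lay between 1.01 and 1.06 on average in the other groups, and scaling to library totals instead moved the median of all tested genes in that comparison from -0.04 to -0.39 (log2). All 12 pDC markers checked were present in every group, with a summed level of 6078 to 6243 CPM (counts scaled to a common library size with the TMM factors) in untreated cells. They summed to 5378 to 5723 CPM with vehicle and 4765 to 4938 CPM with imiquimod at 6 h, and to 7123 to 7200 CPM and 3080 to 3134 CPM at 16 h. The 8 monocyte and macrophage markers summed to 1572 to 1706 CPM with vehicle and 168 to 173 CPM with imiquimod at 6 h, and to 1987 to 2065 CPM and 69.4 to 78.2 CPM at 16 h. Most of the vehicle sums was Ccr2, named after its values were seen, at a mean of 1323 CPM with vehicle and 71.1 CPM with imiquimod at 6 h and of 1729 and 28.5 CPM at 16 h. Of the 6 markers tested 4 were lower and 2 higher at each time. The sums of 8 conventional dendritic cell (cDC1) markers went from 1384 to 1400 CPM to 548 to 578 CPM at 6 h, and those of 7 B cell markers from 108 to 118 CPM to 171 to 185 CPM. Of the 6 B cell markers tested 2 were higher and 4 lower at 6 h, and the sum followed Pax5 (named after its values were seen), which went from a mean of 18.9 to 112 CPM. At 16 h 1 was higher and 5 lower. The 7 erythroid markers stayed at or below 1.24 CPM in sum, the 8 T and NK cell markers at or below 5.26 CPM and the 8 granulocyte and mast cell markers at or below 8.34 CPM. The part that this shift in markers has in the ribosomal protein results was not tested.

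The members took 2.44% ± 0.0675 of all counts in untreated cells (SD, n = 3) and 2.40% ± 0.0428 with vehicle at 0 h. At 6 h the share was 2.27%, 2.48% and 2.47% in the vehicle libraries and 1.72%, 1.71% and 1.71% in the imiquimod libraries. All imiquimod libraries at 6 h lay below every other library of the series. At 16 h the share was 2.21%, 2.23% and 2.19% with vehicle and 2.32%, 2.25% and 2.26% with imiquimod, so that the groups were separate by a small margin and in the opposite order. Without rRNA and mitochondrial genes in the total, the means were 2.88% and 1.95% at 6 h and 2.67% and 2.61% at 16 h, where the order at 16 h turns. On the TMM scale the summed level was 22880 CPM with vehicle and 20777 CPM with imiquimod at 6 h, where vehicle replicate 1 (21289 CPM) lay close to the imiquimod libraries (20519 to 20955 CPM). The gap at 6 h was thus wide in raw share and narrow on the TMM scale.

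**Figure D1:**
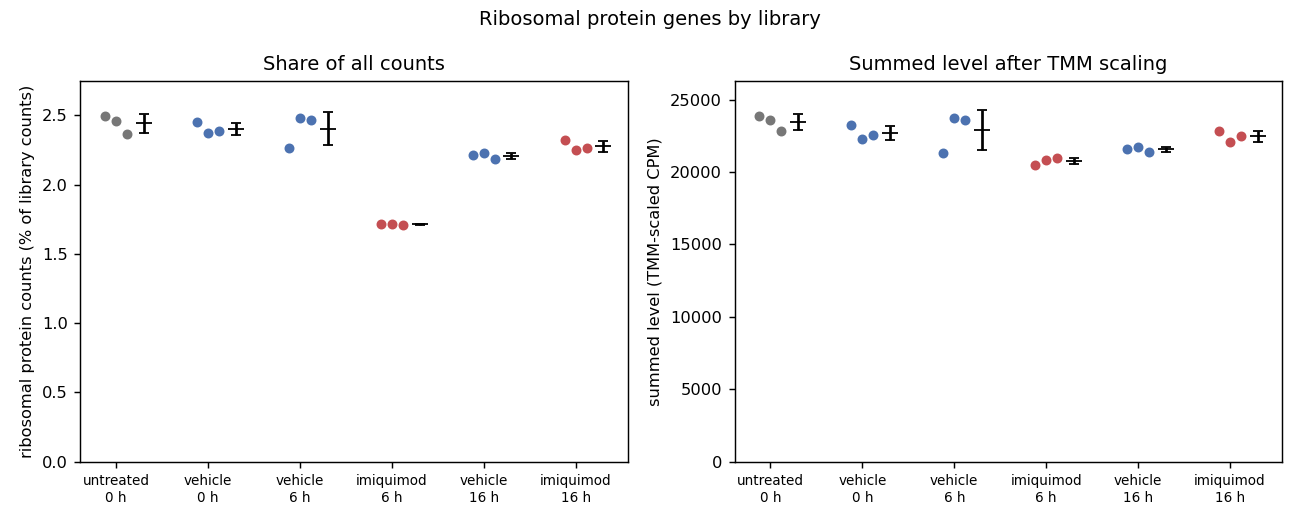
Ribosomal protein genes in each of the 18 libraries, as percent of all counts (left) and as summed TMM-scaled CPM (right). Points are libraries and the bar to the right of each group is the mean with its SD (n = 3). The imiquimod libraries at 6 h sit at 1.71% to 1.72% of counts, below all others, while on the right they differ little from vehicle replicate 1 at 6 h.

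Levels of single members were compared per kilobase of the gene's representative transcript. Among the 74 core members without a relative's name or a same-strand overlap over a large part of the transcript, the median was 304 CPM per kb in untreated cells, with quartiles of 221 and 463. Rps4x, the X-linked copy of the small subunit protein S4, was the highest at 932 CPM per kb. Rps15a was the lowest at 46.7, a ratio of 19.95. The Rps15a level was divided by a representative transcript of 5179 bases, of which 390 are coding, and that of Rps4x by 975 bases. Undivided, Rps15a stood at 242 CPM and Rps4x at 908 CPM in untreated cells. The lowest rank and the ratio thus depend on the transcript chosen. The order at the top changed between groups: Rps27 was highest with vehicle at 16 h (883 CPM per kb) and with imiquimod at 6 h (783), and Rplp1, an acidic protein of the stalk that recruits elongation factors, at imiquimod 16 h (717). Rpl22 was the lowest at imiquimod 6 h with 37.5 CPM per kb, on a transcript of 2051 bases. Over all 18 libraries Rps4x averaged 841, Rps27 781, Rplp1 720 and Rplp0 681 CPM per kb, and as the change of leader shows, this order did not hold in every group.

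For 4 members a low level stood beside an overlap with another gene: Rpl13a at 16.2 CPM per kb, Rps10 at 8.38, Rpl36al at 2.57 and Rpl24 at 3.46 over all libraries. In GENCODE M21 a second gene on the same strand covers 59.3% of the transcript of Rpl13a (Gm45713), 53.6% of Rps10 (RPS10-NUDT3), 71.5% of Rpl24 (Gm28037) and 26.0% of Rpl36al (Gm49383). Those neighbours held 0, 0, 0 and 3 counts over the 18 libraries. The program that assigned reads to genes is not given in the sources used here, the part of these overlaps in the low levels was not tested, and the low levels are not read as low expression.

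At 6 h of imiquimod the ribosomal protein genes changed by small amounts, more of them downwards than upwards. Of 83 tested members 15 were higher and 43 were lower than with vehicle (edgeR quasi-likelihood test, Benjamini-Hochberg adjusted p under 0.05), which is 18.1% and 51.8% of them. Over all tested genes 76.9% passed the same threshold, 37.7% higher and 39.2% lower. The median log2 change was -0.09 for the members and -0.04 for all tested genes, and the members' quartiles of -0.23 and 0.04 stood against -0.74 and 0.59 for all genes. Scaled to library totals, 3 members were higher and 74 lower with a median of -0.44. The distance of the members' median from the median of all genes was -0.06 on both scales. A change of library scale shifts all genes nearly alike, so this distance could not differ between the scales and is no check on the result. Without vehicle replicate 1, 9 were higher and 53 lower, with a median of -0.17.

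Changes of at least 1.5-fold were rare at 6 h. A rise of that size passed in 3 members, against 24.1% of all genes: Rps27l, Rpl7l1 and Rpl24, the last at about 2.56 CPM and named only because its values were seen. A fall of that size passed in 0 members with edgeR and 0 with DESeq2, against 27.8% of all genes, while 60 members had an unadjusted edgeR p under 0.05 at any size. Of the 46 core large subunit genes 6 rose and 26 fell, and of the 31 core small subunit genes 6 rose and 17 fell. Other tested genes with a mean of at least 100 CPM had a median of 0.27, and the 69 members at that level had -0.14.

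At 16 h the balance was the other way. With imiquimod 42 of the 83 members were higher and 15 lower than with vehicle (50.6% and 18.1%), against 39.1% higher and 38.1% lower among all tested genes, of which 77.2% passed. The median was 0.09 for members and -0.003 for all genes, with quartiles of -0.04 and 0.27 for members. At a mean of at least 100 CPM the medians lay close together, at 0.06 for the 69 members (31 higher, 13 lower) and 0.04 for the 2190 other genes (1050 higher, 932 lower). Scaling to library totals left these counts within 1.5 times. Vehicle at 16 h was itself below vehicle at 0 h, with a member median of -0.09. The summed TMM-scaled level of the members averaged 21566 CPM with vehicle at 16 h. The imiquimod libraries at 16 h (22074 to 22810 CPM) overlapped those of vehicle at 0 h (22275 to 23258 CPM). The balance at 16 h is thus relative to vehicle at 16 h and is no rise of the summed level above 0 h. Changes of 1.5-fold or more passed in 5 members upwards and 3 downwards, against 25.6% and 25.8% of all genes (51.4% in either direction). Upwards these were Rps27l, Rps2, Rpl7l1 and the poorly counted Rpl24 and Rps10, and downwards Rpl31, Rps27rt and Rpl3l, of which Rpl24 and Rps10 were named after their values were seen.

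The effect of imiquimod differed between 6 h and 16 h for most members. Tested as the difference between the imiquimod effects, 48 members had a higher change at 16 h and 5 a lower one (57.8% and 6.02%), against 28.5% and 28.4% of all genes, of which 56.9% passed. The median difference was 0.20 for members and -0.006 for all genes. Scaled to library totals these counts were 76 and 1 with a median of 0.53, beside an all-gene median of 0.33. The difference also takes in the change of the vehicle groups over time. Their member medians against vehicle at 0 h were -0.02 at 6 h and -0.09 at 16 h on the TMM scale. Of the members, 15 fell at 6 h and rose at 16 h, 18 fell at 6 h and did not pass at 16 h, 12 rose at both times and 10 fell at both. Rps29 alone rose at 6 h and fell at 16 h, and 6 members passed at neither time. The calls at both times were not counted together for all tested genes, of which 76.9% passed at 6 h and 77.2% at 16 h. Whether these combined counts set the members apart from other genes is therefore not known. The lower differences of Rps29, Rps28 and Rplp0 (-0.23, -0.17 and -0.12) turned to 0.11, 0.16 and 0.21 with scaling to library totals. Differences of 1.5-fold or more passed upwards in Rps27l, Rps2, Rpl11, Rpl36a and Rpl41 (5 members, 17.2% of all genes) and downwards in Rps27 (1 member, 16% of all genes), where Rpl41 was named after its values were seen. The difference of Rps27 (log2 -0.59) lay so close to 1.5-fold that it fell short of it with scaling to library totals (-0.25), without an expression filter (-0.55), with rRNA genes left out (-0.57) and when the 0 h libraries were kept out of the fit (-0.57). Leaving out single libraries moved it between -0.61 and -0.52, on both sides of that bound. The comparisons at 6 h and 16 h share no library, and across the 83 members their log2 changes had a Pearson r of 0.75 and a Spearman rho of 0.54. Over all tested genes the values were 0.82 and 0.75, and genes are not independent replicates. Without Rpl3l and Rps27l the members' r was 0.62.

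**Figure D2:**
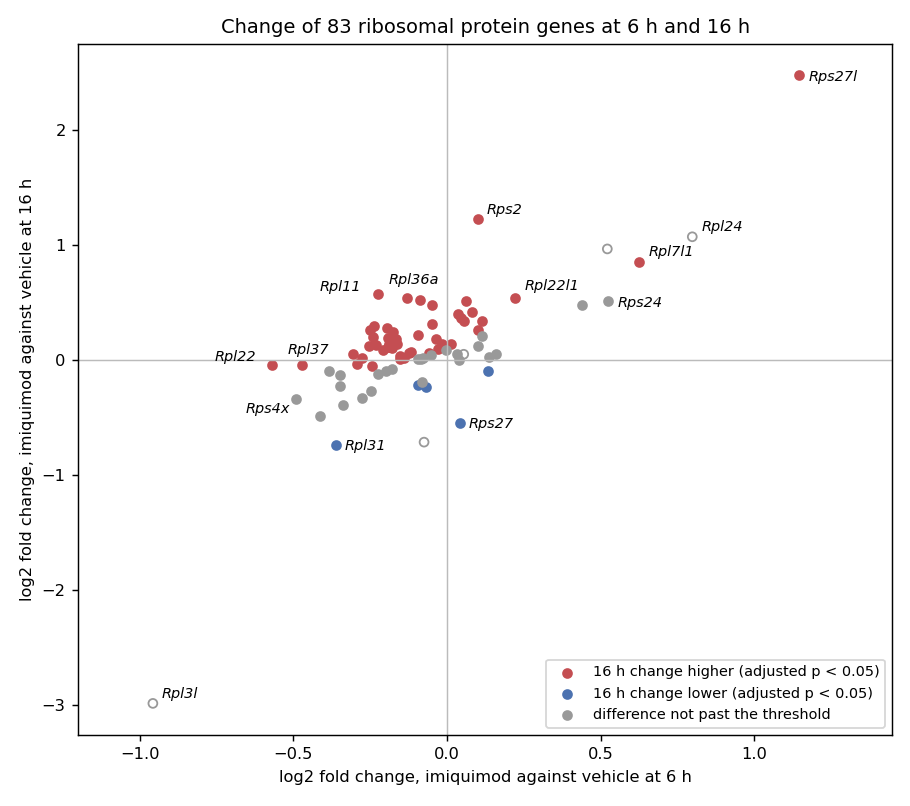
Log2 fold change under imiquimod at 6 h (horizontal) and 16 h (vertical) of the 83 tested ribosomal protein genes. Each point is a gene, coloured by whether its change at 16 h was above (48 genes), below (5 genes) or not past the threshold against its change at 6 h, and open circles mark genes under 10 CPM. Most genes crowd near 0 on both axes, and Rps27l, Rps2 and Rpl7l1 stand apart from them.

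Rps27l, a relative of Rps27 that is known as a target of p53, had the largest rise among members above 10 CPM at both times. At 6 h it stood at 31.6, 28.6 and 31.6 CPM with vehicle and at 65.7, 70.7 and 66.8 CPM with imiquimod, a rise of 2.21-fold (log2 1.15 ± 0.06 SE, edgeR adjusted p = 1.92e-30). At 16 h it stood at 33.5, 29.3 and 29.2 CPM with vehicle and at 173, 168 and 170 CPM with imiquimod, a rise of 5.57-fold (log2 2.48 ± 0.05, edgeR adjusted p = 4.74e-56). The groups were far apart at both times, all vehicle and untreated libraries lay between 28.6 and 36.9 CPM, and the effect was larger at 16 h by 1.33 ± 0.08 on the log2 scale (edgeR adjusted p = 4.67e-25).

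Rps27, the core gene that Rps27l resembles, moved the other way at 16 h. Its level was 309, 299 and 306 CPM with vehicle and 215, 201 and 209 CPM with imiquimod (log2 -0.55 ± 0.04, edgeR adjusted p = 6.72e-23), and the groups did not overlap. At 6 h the imiquimod libraries (262 to 275 CPM) overlapped those of vehicle (245 to 272 CPM), with a log2 change of 0.04 ± 0.04 (edgeR adjusted p = 0.312). Of the 75-base windows of the Rps27 transcript, 98.5% also occur in Rps27rt, its retrogene copy, as do 90.3% of the windows of Rps27rt in Rps27, so that most reads of this gene and its copy cannot be told apart by sequence. Rps27rt itself was counted at 3.57 to 4.61 CPM with vehicle and 2.33 to 2.56 CPM with imiquimod at 16 h. Rps27l shares 12% of its windows with other transcripts.

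Rpl7l1, a relative of Rpl7 with a role in ribosome assembly, rose at both times. It stood at 73.4, 74.2 and 82.97 CPM with vehicle and 118, 118 and 119 CPM with imiquimod at 6 h (log2 0.63 ± 0.05, edgeR adjusted p = 2.43e-21). At 16 h the values were 71.7, 71.9 and 65.4 CPM and 129, 124 and 125 CPM (log2 0.86 ± 0.05, edgeR adjusted p = 3.91e-29). The groups were separate at each time, and only 3.87% of the windows of this gene occur elsewhere. Rpl7 itself did not pass at either time, with log2 changes of -0.09 ± 0.05 and 0.01 ± 0.05.

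Rpl22 and Rpl22l1 encode paralogues that can take the same place in the large subunit. Rpl22 stood at 110, 122 and 111 CPM with vehicle and at 80.4, 73.9 and 76.8 CPM with imiquimod at 6 h, the largest fall among called members above 10 CPM at that time (log2 -0.57 ± 0.05, edgeR adjusted p = 3.8e-18). At 16 h the groups overlapped, at 101 to 112 CPM and 102 to 103 CPM (log2 -0.04 ± 0.05, edgeR adjusted p = 0.43), and the effects differed by 0.53 ± 0.07 (edgeR adjusted p = 1.02e-10). The imiquimod libraries at 6 h lay below every other library for Rpl22. Rpl22l1 stood at 33.6, 37.1 and 37.2 CPM with vehicle and 41.9, 43.3 and 40.7 CPM with imiquimod at 6 h (log2 0.22 ± 0.06, edgeR adjusted p = 0.0013), a direction that turns to -0.13 when libraries are scaled to their totals. At 16 h it rose from 30.4, 32.7 and 31.4 CPM to 44.1, 46.3 and 47.5 CPM (log2 0.54 ± 0.06, edgeR adjusted p = 2.58e-12). Most of that step lies in the vehicle group, since untreated cells held 42.1 to 44.3 CPM of Rpl22l1 and vehicle at 16 h was 0.41 ± 0.06 below vehicle at 0 h (edgeR adjusted p = 5.95e-08). Rpl22 shares 1.42% of its windows with other transcripts and Rpl22l1 58.6%.

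The other relatives were hardly expressed. Rpl3l, known from striated muscle, held 109 counts over all libraries, and went from 0.368 to 0.621 CPM with vehicle to 0 to 0.0802 CPM with imiquimod at 16 h (edgeR adjusted p = 0.000752), too few counts for a fold. Rpl36al stayed between 2.26 and 3.97 CPM in all libraries and passed in neither imiquimod comparison.

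**Figure D3:**
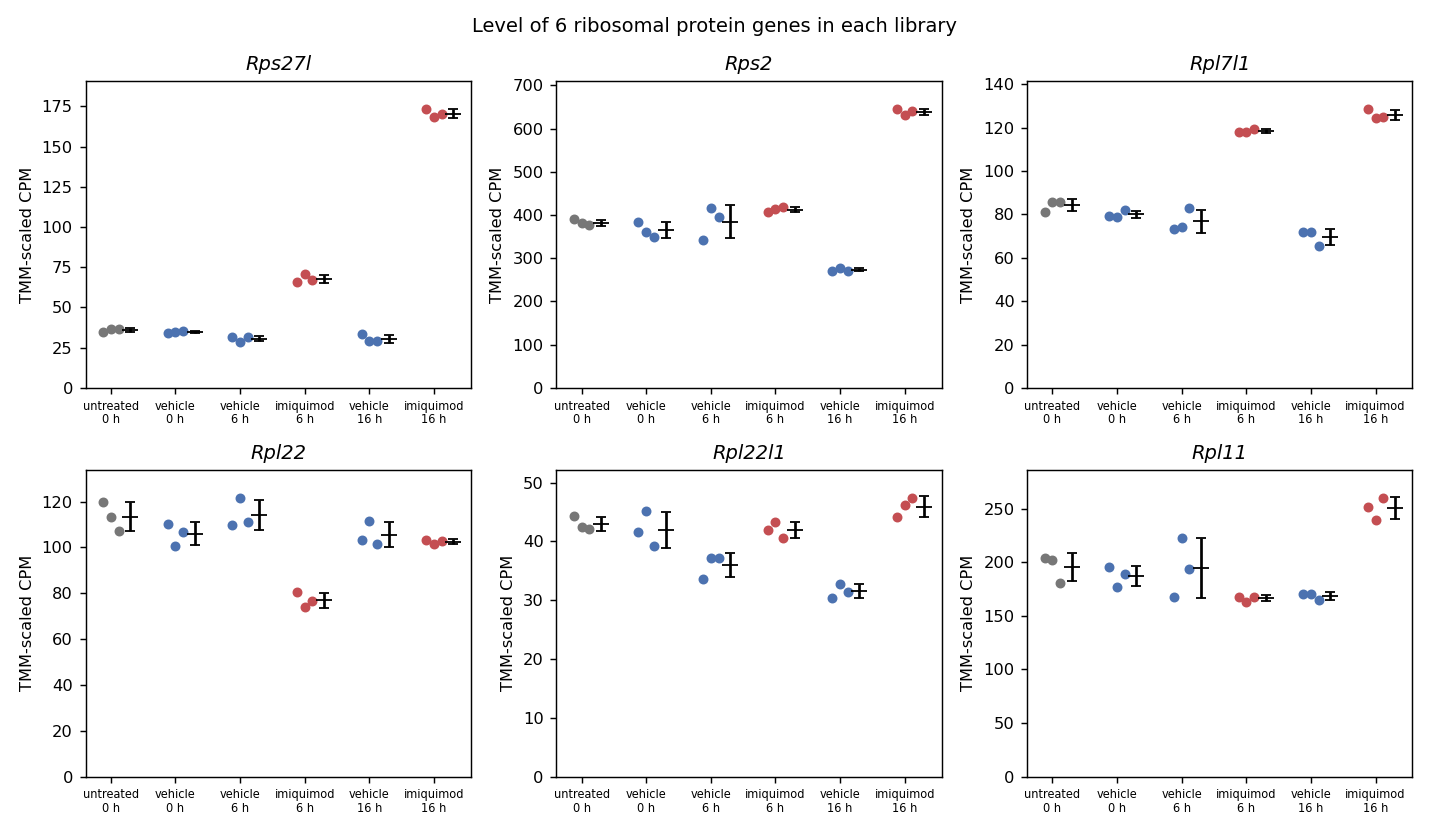
Level of 6 ribosomal protein genes in each library, in TMM-scaled CPM from 0. Points are libraries and the bar to the right of each group is the mean with its SD (n = 3). Rps27l and Rpl7l1 are higher with imiquimod at both times, Rps2 and Rpl11 at 16 h, and Rpl22 is lower at 6 h alone.

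Rps2, a protein of the small subunit near the path of the entering mRNA, rose late. At 16 h it stood at 271, 277 and 272 CPM with vehicle and 646, 631 and 640 CPM with imiquimod, a rise of 2.34-fold (log2 1.23 ± 0.04, edgeR adjusted p = 1.57e-25). At 6 h vehicle libraries held 343, 416 and 395 CPM and imiquimod libraries 406, 414 and 418 CPM, which overlap (log2 0.10 ± 0.04, edgeR adjusted p = 0.0293). The effects differed by 1.12 ± 0.06 (edgeR adjusted p = 6.59e-19). The level with vehicle at 16 h was itself 0.42 ± 0.04 below vehicle at 0 h (349 to 384 CPM, edgeR adjusted p = 1.17e-10), and imiquimod at 16 h lay above every library at 0 h. Of the Rps2 windows 64.4% occur in other transcripts, of 50 genes in all.

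Rpl11 and Rpl5 form a particle with 5S rRNA that joins the large subunit and is known to bind the p53 regulator Mdm2. Rpl11 stood at 167, 223 and 194 CPM with vehicle and 168, 163 and 168 CPM with imiquimod at 6 h (log2 -0.23 ± 0.09, edgeR adjusted p = 0.0281), with overlap between the groups. At 16 h it rose from 171, 170 and 165 CPM to 252, 240 and 260 CPM (log2 0.57 ± 0.08, edgeR adjusted p = 2.44e-05), and the effects differed by 0.80 ± 0.12 (edgeR adjusted p = 5.71e-05). Rpl5 fell by 0.18 on the log2 scale at 6 h (SE 0.04, edgeR adjusted p = 1.6e-05) and rose by 0.10 at 16 h (SE 0.04, edgeR adjusted p = 0.0115). That later rise did not pass without imiquimod replicate 2 (edgeR adjusted p = 0.0977). Both genes therefore had a higher change at 16 h than at 6 h, by 0.28 ± 0.05 for Rpl5. The mean level of Rpl5 was 252 CPM with vehicle at 0 h, 224 CPM with vehicle at 16 h and 240 CPM with imiquimod at 16 h. Its rise at 16 h is thus relative to a lower vehicle level and not above the mean at 0 h.

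The stalk genes moved little. Rplp0, the stalk base, overlapped between the groups at 6 h (904 to 1036 CPM with vehicle, 915 to 918 CPM with imiquimod) and fell at 16 h from 926 to 943 CPM to 791 to 818 CPM (log2 -0.22 ± 0.03, edgeR adjusted p = 4.47e-08). Rplp1 had log2 changes of -0.08 ± 0.03 and 0.02 ± 0.03. Rplp2 rose at 16 h by 0.26 ± 0.05 (edgeR adjusted p = 8.8e-06), and Rpl12, which lies beside the stalk, by 0.31 ± 0.04 (edgeR adjusted p = 5.07e-13). Among these 4 genes 2 passed as lower and 0 as higher at 6 h, with changes from -0.09 to 0.10. The changes of the 4 genes at 16 h ranged from -0.22 to 0.31. Of 7 genes for proteins at the tunnel exit 1 rose and 3 fell at 6 h, and 3 rose and 2 fell at 16 h. Of 14 genes for the head of the small subunit 4 rose and 6 fell at 6 h, and 7 rose and 3 fell at 16 h.

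Rpl31 had the largest fall at 16 h among called members above 10 CPM. The gene, whose protein sits at the exit of the peptide tunnel, stood at 314, 251 and 323 CPM with vehicle and 222, 236 and 233 CPM with imiquimod at 6 h (log2 -0.36 ± 0.07, edgeR adjusted p = 0.000316). At 16 h it stood at 343, 339 and 339 CPM against 204, 206 and 202 CPM (log2 -0.74 ± 0.07, edgeR adjusted p = 1.75e-07). The fall was larger at 16 h by 0.38 ± 0.10 (edgeR adjusted p = 0.00499), which was lost with scaling to library totals (adjusted p = 0.762). Of the Rpl31 windows 66.7% occur in other transcripts on either strand, 35.5% in Tbc1d8 alone. No gene on the same strand overlaps the Rpl31 transcript, and whether the Tbc1d8 match is an overlap on the opposite strand was not tested.

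Rps4x fell from 825, 1106 and 969 CPM to 685, 687 and 693 CPM at 6 h (log2 -0.49 ± 0.08, edgeR adjusted p = 0.000113) and from 842, 844 and 822 CPM to 684, 643 and 654 CPM at 16 h (log2 -0.34 ± 0.08, edgeR adjusted p = 0.00215). Rpl37 fell at 6 h alone by the test, from 170 to 180 CPM to 123 to 133 CPM (log2 -0.47 ± 0.04, edgeR adjusted p = 4.8e-19), and its effect at 16 h was higher by 0.43 ± 0.05 (edgeR adjusted p = 7.24e-11). The steady rises beside these were those of Rps24, a protein whose gene is mutated in some cases of Diamond-Blackfan anaemia, and Rpl27. Rps24 went from 335, 355 and 348 CPM to 487, 498 and 508 CPM at 6 h (log2 0.52 ± 0.03) and from 340, 334 and 341 CPM to 475, 473 and 498 CPM at 16 h (log2 0.51 ± 0.03). The difference between these effects was -0.01 ± 0.05 (edgeR adjusted p = 0.841). Rpl27 changed by 0.44 ± 0.09 at 6 h and 0.48 ± 0.08 at 16 h, and scaling to library totals ended the call at 6 h (adjusted p = 0.354).

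Of a panel of 11 members with well-known roles 1 rose and 7 fell at 6 h, 5 rose and 2 fell at 16 h, and 8 had a higher and 1 (Rplp0) a lower change at 16 h. Rps6, the substrate of S6 kinase, stood at 223, 289 and 257 CPM with vehicle and 217, 217 and 221 CPM with imiquimod at 6 h (log2 -0.23 ± 0.08, edgeR adjusted p = 0.0148), and at 16 h its change was 0.13 ± 0.08 (edgeR adjusted p = 0.138). Rpsa, also known as the laminin receptor precursor, fell by 0.29 at 6 h (SE 0.03, edgeR adjusted p = 6.21e-12) and stood at -0.03 ± 0.03 at 16 h. Rpl3, which lines the peptidyl transferase centre, fell by 0.19 and then rose by 0.14. Rpl10, which joins the large subunit last, fell at both times, by 0.25 and 0.27, with no difference past the threshold (-0.02 ± 0.05).

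Rpl38, known for its part in translating Hox mRNAs, overlapped at 6 h (70.8 to 86.6 CPM with vehicle, 70.7 to 78.0 CPM with imiquimod) and rose at 16 h from 71.2 to 71.9 CPM to 93.3 to 104 CPM (log2 0.48 ± 0.05, edgeR adjusted p = 2.82e-12). Rps19, the gene most often mutated in Diamond-Blackfan anaemia, changed by 0.08 ± 0.04 at 6 h, a value that turns to -0.27 with library totals, and rose by 0.41 ± 0.04 at 16 h. Rpl10a changed by 0.04 ± 0.04 at 6 h and rose by 0.37 ± 0.04 at 16 h. Rps3, which shares no window with another transcript, fell by 0.35 at 6 h (SE 0.07, edgeR adjusted p = 0.00053) and changed by -0.13 ± 0.07 at 16 h. Rpl36a, which is outside the panel, had a 16 h rise of 0.54 ± 0.06 and a 6 h change of -0.13 ± 0.06. Its mean level was 46.9 CPM with vehicle at 0 h, 38.8 CPM with vehicle at 16 h and 56.5 CPM with imiquimod at 16 h, so part of that rise lies in the vehicle group.

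Ribosomal protein genes have many processed pseudogenes, whose reads can be confused with theirs. Of the members 80 share at least 1 window of 75 bases with a pseudogene transcript. The median member shares 43.6% of its windows with some other gene, where matches on either strand count. The table holds 297 Rpl or Rps pseudogene rows, of which 178 have a count, and together they took 3.07 to 3.63 counts per 1000 member counts in every library. The 17 tested members that share under 20% of their windows had a median of -0.19 at 6 h and 0.05 at 16 h, beside -0.12 and 0.14 for the 28 members that share 60% or more. Across the 83 members the level per kilobase and the share of windows had a Pearson r of 0.11 and a Spearman rho of 0.08, a description over genes of the same libraries. Both the weakly and the strongly shared members therefore show a lower median at 6 h than at 16 h.

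**Figure D4:**
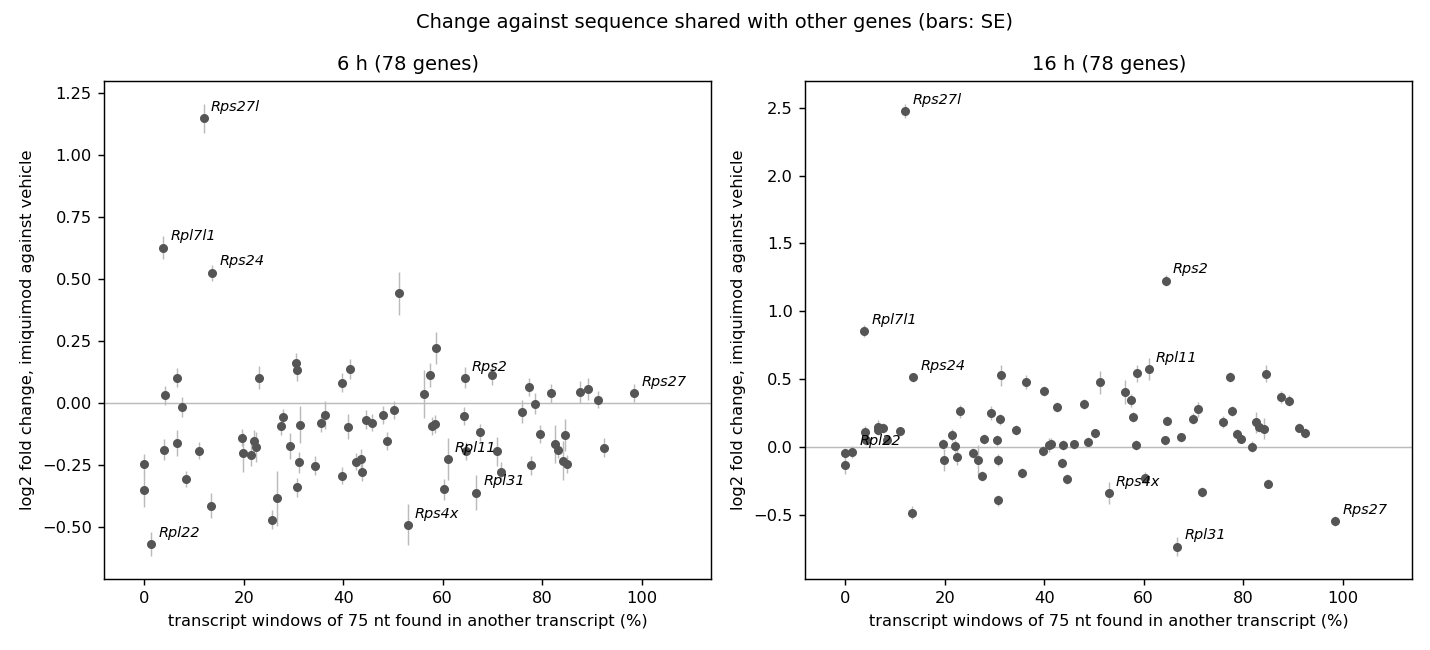
Log2 fold change under imiquimod against the percent of 75-base windows that a member's transcript shares with other genes, at 6 h (left) and 16 h (right), for the 78 members of at least 10 CPM; bars are SE. Rps27l and Rpl7l1 change most among members with few shared windows (12% and 3.87%), while Rps2 (64.4%) and Rps27 (98.5%) are among the members with many.

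With the vehicle alone the members changed little. Vehicle at 0 h against untreated cells gave 0 members past the threshold with edgeR (5 at an unadjusted p under 0.05) and 0 with DESeq2 (1 at an unadjusted p under 0.05), beside 0% of all genes. Vehicle at 6 h against 0 h gave 3 higher and 15 lower, against 26% and 26.9% of all genes (52.9% in either direction). Leaving out single libraries moved these counts between 0 and 26 and between 4 and 20. Without vehicle replicate 1 at 6 h they were 26 and 12, without vehicle replicate 2 at 6 h 0 and 4, and without vehicle replicate 1 at 0 h 8 and 5. At 16 h against 0 h 1 member was higher (Rps27) and 33 were lower, against 28.4% and 30% of all genes (58.4% in either direction), with a median of -0.09. The largest of those falls were in Rps2 (-0.42), Rpl22l1 (-0.41), Rpl36a (-0.27) and Rpl14 (-0.24). None reached 1.5-fold in edgeR or DESeq2 at either time (0 members in each), against 17.6% of all genes at 6 h (8.86% higher, 8.77% lower) and 23.7% at 16 h (12.1% higher, 11.7% lower), while 24 members at 6 h and 38 at 16 h had an unadjusted edgeR p under 0.05. The 10 proliferation markers summed to 1203 to 1228 CPM with vehicle at 0 h, 990 to 1062 CPM at 6 h and 382 to 393 CPM at 16 h. With imiquimod they summed to 1053 to 1088 CPM at 6 h and 1245 to 1270 CPM at 16 h, where 9 of 10 were higher than with vehicle. Their part in the 16 h results of the members was not tested.

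Lists of other genes of translation were counted in the same fit, in which 76.9% of all genes passed at 6 h and 77.2% at 16 h. Of 29 initiation factors 23 rose and 4 fell at 6 h and 25 rose at 16 h, when all 29 fitted changes lay above 0, with medians of 0.64 and 0.80. Eif4a1, the helicase of the cap-binding complex, went from 274 ± 13.8 to 691 ± 8.09 CPM at 6 h (SD, n = 3) and from 232 ± 6.17 to 665 ± 26.9 CPM at 16 h. Eif5a, which helps stalled ribosomes, went from 182 ± 13.7 to 445 ± 18.4 CPM and from 164 ± 2.53 to 477 ± 11.2 CPM. Of 19 elongation factors and other TOP genes 6 rose and 11 fell at 6 h, and 13 rose and 6 fell at 16 h, with medians of -0.22 and 0.28. Npm1, a nucleolar chaperone, changed by 0.24 ± 0.04 at 6 h and 1.41 ± 0.04 at 16 h, while Eef2, the translocase, changed by -0.74 ± 0.03 and -0.36 ± 0.03. Tpt1 changed by 0.32 ± 0.03 at 6 h, which turns to -0.03 with library totals, and by -0.38 ± 0.03 at 16 h.

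Of 21 regulators of mTORC1 and TOP mRNAs 9 rose and 9 fell at each time, with medians of -0.05 and 0.01. Larp1, which binds the TOP motif, went from 238 ± 5.11 to 656 ± 23.1 CPM at 6 h and from 243 ± 6.48 to 502 ± 3.03 CPM at 16 h (SD, n = 3). Eef2k, the kinase that inhibits Eef2, fell from 133 ± 0.723 to 15.8 ± 1.78 CPM and from 147 ± 2.4 to 39.5 ± 1.91 CPM. Pdcd4, an inhibitor of Eif4a1 that S6 kinase marks for degradation, fell from 79.9 ± 2.9 to 10.1 ± 1.7 CPM at 6 h, and Deptor, an inhibitor of mTOR, from 12.3 ± 2.44 to 0.228 ± 0.112 CPM. Of 10 chaperones and quality control genes 6 rose and 1 fell at 6 h and 6 rose and 2 fell at 16 h, among them Grwd1, a chaperone of Rpl3, with changes of 1.58 ± 0.11 and 2.43 ± 0.10. Of 11 transcription factors of ribosomal protein genes 5 rose and 4 fell at 6 h and 2 rose and 7 fell at 16 h, and Myc went from 4.33 ± 0.686 to 86.3 ± 2.02 CPM at 6 h and from 3.59 ± 0.451 to 120 ± 1.32 CPM at 16 h. Of the ribosomal proteins whose names fall outside Rpl and Rps, Rack1 changed by -0.18 ± 0.03 and 0.10 ± 0.03 and Fau by -0.26 ± 0.05 and -0.17 ± 0.05, in the range of the members.

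**Figure D5:**
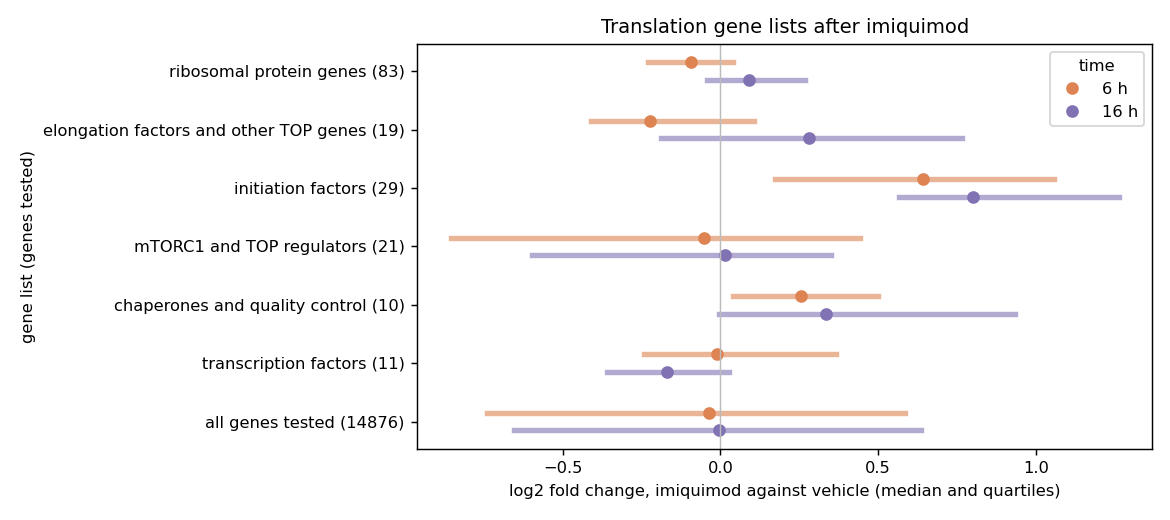
Median (point) and quartiles (bar) of the log2 fold change under imiquimod at 6 h and 16 h for the ribosomal protein genes, 5 other lists of translation genes and all genes tested, with the number of genes tested in brackets. The bars of the ribosomal protein genes are the narrowest, and the initiation factors lie to the right of 0 at both times (medians 0.64 and 0.80).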

How the data were processed

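The authors deposited a table of raw counts per gene for 18 libraries of total RNA, depleted of rRNA and read as pairs of 75 bases. Per the submitters' processing notes, STAR and mm10 were used, and the counting program and its handling of reads with several matches are not given in the sources used here. The members and all lists were chosen with earlier results of these data known. Counts were fitted over 14876 genes with edgeR 4.0.16 (R 4.3.3, TMM scaling, filterByExpr with a minimum count of 10, quasi-likelihood F-test, 6 group means, Benjamini-Hochberg adjusted p under 0.05). The coefficient of variation among libraries, which edgeR terms biological, was 3.08%, and it may be technical here. DESeq2 1.42.0, other scalings and filters, and each library left out in turn were alternatives. The fit was tested on simulated counts. Levels are CPM on the TMM scale, per kilobase of a GENCODE M21 transcript where genes are compared. Windows of 75 bases and their reverse complements were searched in all M21 transcripts, so a gene on the opposite strand can share windows. Genes named were, per comparison, the 4 highest and 4 lowest called members of at least 10 CPM, and whole lists of stalk, 5S particle, relative and panel genes, and of other translation genes the 3 highest and lowest called per list. Replicate numbers did not pair libraries. Results for some genes named by this rule are not reported here.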

Additional observations from a re-analysis of the deposited data

Results flagged for a closer look

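The effect of imiquimod at 16 h against that at 6 h passed the test of the difference (edgeR, adjusted p under 0.05) in 48 members with a higher and 5 with a lower change at 16 h. Among the members named by the rule, the higher differences on the log2 scale were 1.33 for Rps27l, 1.12 for Rps2, 0.80 for Rpl11, 0.67 for Rpl36a, 0.53 for Rpl22 and 0.53 for Rpl38. They were followed by Rpl13a (0.37), Rpl12 (0.36), Rps6 (0.36), Rpl3 (0.33), Rps19 (0.33), Rpl10a (0.32), Rpl22l1 (0.32), Rpl5 (0.28), Rpsa (0.26), Rpl7l1 (0.23) and Rplp2 (0.16). The lower differences were -0.59 for Rps27, -0.38 for Rpl31, -0.23 for Rps29, -0.17 for Rps28 and -0.12 for Rplp0. The difference of Rpl13a rests on 13.8 to 21.6 CPM per library and did not pass with DESeq2 (adjusted p = 0.064).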

How the results depend on the processing

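Scaled to library totals, 3 members rose and 74 fell at 6 h of imiquimod (1 and 20 by 1.5-fold, median -0.44), and 76 had a higher and 1 a lower change at 16 h than at 6 h (36 and 0 by 1.5-fold, median 0.53). On that scale 1 member was higher with vehicle at 6 h than at 0 h, and at 16 h against 0 h 0 were higher and 52 lower (median -0.14). It also turned the 6 h changes of Rpl22l1 (-0.13), Rps19 (-0.27), Tpt1 (-0.035) and Nemf (-0.21), and the differences between the effects of Rps29 (0.11), Rps28 (0.16) and Rplp0 (0.21). These 7 turns follow the construction of that scaling, which moved the median of all genes to -0.39 at 6 h. DESeq2 size factors in edgeR gave 8 lower differences between the effects. Without an expression filter 1 member fell by 1.5-fold at 6 h, 3 differences were lower (0 by 1.5-fold) and 8 members were higher with vehicle at 6 h. With rRNA genes left out 1 fell by 1.5-fold at 6 h and 0 differences were lower by 1.5-fold. Fitting only the groups compared gave 0 differences lower by 1.5-fold, 0 higher and 7 lower with vehicle at 6 h, and 2 higher with vehicle at 16 h. The DESeq2 test gave 1 higher with vehicle at 6 h. Where not named, the cause was not tested.

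Over members with under 20% of windows shared, chosen after seeing the data, the median was -0.19 at 6 h and 0.052 at 16 h. Without rRNA and mitochondrial genes in the total the share of counts was 2.80% in untreated cells, 2.72%, 2.88% and 2.67% with vehicle at 0, 6 and 16 h, and 1.95% and 2.61% with imiquimod at 6 and 16 h. With pseudogenes added it was 1.72% at imiquimod 6 h. Leaving out single libraries gave 9 to 15 members higher and 0 to 2 lower by 1.5-fold at 6 h, with medians of -0.17 to -0.095, where 9, 2 and -0.17 came without vehicle replicate 1 at 6 h. It gave 4 to 8 lower differences between the effects (0 to 2 by 1.5-fold), with 8 and 2 without vehicle replicate 3 at 6 h. With vehicle it gave 0 to 26 higher and 4 to 20 lower at 6 h, and 0 to 1 higher and 0 to 1 lower by 1.5-fold at 16 h. Of single genes named, 1416 values with a library left out stayed on their side of the threshold, 82 lost the call and 20 gained it.

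Libraries of the same number did not deviate together (correlations of -0.07 to 0.03), and not every library correlated best with its own number. A replicate block gave 15 members higher and 42 lower at 6 h, 40 and 15 at 16 h, 48 and 5 for the difference, 2 and 13 for vehicle at 6 h and 1 and 32 at 16 h. Depth limits Rpl3l, Rpl36al, Rps27rt and Rpl24, all under 5 CPM on average.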

Other observations

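Among protein-coding rows that the rule leaves out because their symbols contain -ps, 8 start with Rpl or Rps, and of these only Rpl9-ps6 had enough counts to be tested (328 counts over 18 libraries). The others held 0 to 57 counts. The pseudogene rows took 3.24 ± 0.147 counts per 1000 member counts with vehicle and 3.39 ± 0.212 with imiquimod at 6 h, and 3.54 ± 0.0612 and 3.24 ± 0.101 at 16 h (SD, n = 3).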
